A study of Mus musculus with 12 samples.

Results

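The comparison asks whether hilar and peripheral bile duct organoids of the liver differ in another way when the Notch ligand Jag1 carries the Ndr allele. For each gene, the log2 level in the hilar culture minus that in the peripheral culture of the same mouse was taken, and the 3 differences of Jag1 Ndr/Ndr mice were set against the 3 of Jag1+/+ mice. The comparison uses all 12 of the 12 libraries and every gene that passed a filter on low counts, 15014 genes. All cultures were intrahepatic cholangiocyte organoids, grown untreated in domes of Matrigel, a basement membrane gel, and RNA was taken from them at passage 5. The Ndr group was mice 1224, 1220 and 1219, homozygous for Ndr, and the wild-type (WT) group was mice 1221, 1225 and 1223. Each mouse gave 1 hilar and 1 peripheral culture, so the groups Ndr hilar, Ndr peripheral, WT hilar and WT peripheral held 3 libraries each. Values of mice are given in these orders throughout, 1224, 1220, 1219 and then 1221, 1225, 1223. Cultures were derived in June, on day 21 for mouse 1224, day 18 for 1220 and day 17 for 1219, and on day 15 for WT mice 1221 and 1223 and day 21 for 1225. The labels give no age, strain or sex. Each region of a mouse is 1 culture, so a regional difference within a mouse cannot be told apart from a difference between 2 cultures of that mouse.

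Notch signalling passes between neighbouring cells: a Jagged or Delta ligand on one cell binds a Notch receptor on the next, the receptor is cut by gamma-secretase, and its intracellular part switches on target genes with Rbpj. In the embryonic liver, Jag1 around the portal vein directs nearby liver progenitors to become bile duct cells, and ducts form from the hilum outwards to the periphery. Mutations of JAG1 cause most Alagille syndrome, in which bile ducts are too few, and Ndr is a missense allele of mouse Jag1 used as a model of it.

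The libraries held 6708822 to 16030880 counts, and the hilar total over the peripheral total of a mouse was 0.647, 0.683 and 1.033 in the Ndr mice and 1.297, 0.823 and 0.798 in the WT mice. Summed over 30 cholangiocyte markers, the level was between 17300 and 27930 CPM (read counts scaled to the size of the library) in every library. Of the markers of other cells, 11 of 16 pancreatic, 7 of 17 immune, 5 of 15 endothelial, 3 of 17 fibroblast and 6 of 33 hepatocyte genes were at 0 in all 12 libraries, among them Ptf1a, Adgre1, Kdr, Dcn and Cyp7a1. The sums of the lists were 11.3 to 45.3 CPM for immune, 8.23 to 71.8 CPM for endothelial, 1.51 to 86.5 CPM for fibroblast genes, and 557 to 6113 CPM for hepatocyte genes, largely from Trf. None of the 10 mesothelial markers was at 0 throughout, and their sum was 188 to 342 CPM in Ndr hilar and 455 to 679 CPM in Ndr peripheral cultures, without overlap, and 58.5 to 724 CPM in WT hilar and 158 to 551 CPM in WT peripheral ones. The 4 mesothelial markers tested overlapped between genotypes in their regional differences, and the part of such cells in the results was not tested. In a bulk culture, fewer cells of a type and less RNA per cell cannot be told apart.

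No gene differed in its regional difference between the genotypes at an adjusted p under 0.05 in the edgeR quasi-likelihood test, which called 0 of 15014 genes (0%) with mouse as a block. The smallest adjusted p was 0.9999. At an unadjusted p under 0.05 there were 413 genes (2.75% of those tested), 234 of them (1.56%) with a higher and 179 (1.19%) with a lower regional difference in Ndr mice. DESeq2 with the same design called 23 of 14722 genes (0.156%), 19 higher (0.129%) and 4 lower (0.0272%), and limma-voom called 0. With 3 mice on each side the smallest two-sided p of an exact permutation test is 0.1, so a single gene is described below by its 6 differences. For 1170 genes (7.79%) the 3 Ndr differences did not overlap the 3 WT ones, 608 above (4.05%) and 562 below (3.74%). Labels unrelated to the differences would on average give about 0.1 of genes without overlap and about 0.05 at an unadjusted p under 0.05. Neither the 7.79% nor the 2.75% was larger than that. In 111 genes (0.739%) all 3 Ndr mice were higher and all 3 WT mice lower in the hilar culture, and in 87 (0.579%) the reverse held. The interaction, which is the regional log2 difference in Ndr minus that in WT, had a median of -0.03 over all genes and a median standard error (SE) of 0.54.

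**Figure D1:**
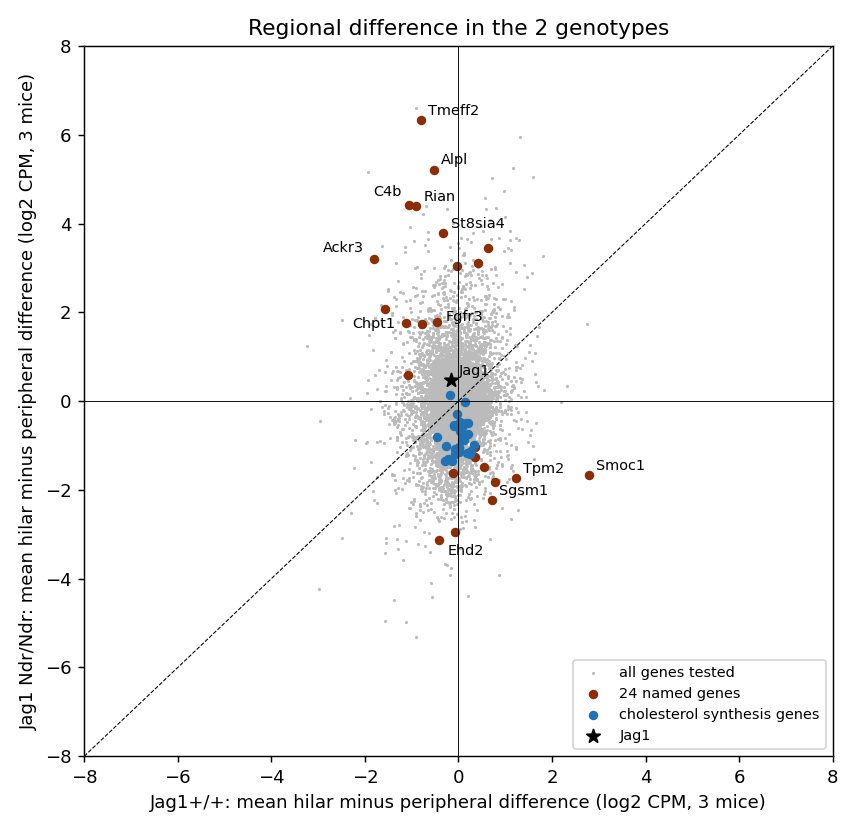
Mean hilar minus peripheral log2 CPM difference of each of the 15014 genes in Jag1+/+ mice (x axis) and Jag1 Ndr/Ndr mice (y axis), n = 3 mice each. The dashed line marks equal differences, and the cloud is wider along the Ndr axis; the 24 named genes lie away from the line and 28 of the 29 cholesterol synthesis genes have a fitted interaction below 0.

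The Ndr mice spread more than the WT mice. The standard deviation (SD) of the 3 regional differences had a median of 0.69 over genes in Ndr and 0.46 in WT mice, on the log2 scale. Region alone called 0 genes in either genotype by edgeR, with 1270 genes at an unadjusted p under 0.05 in Ndr and 72 in WT mice. Across the 15014 genes, the regional differences of Ndr mice 1224 and 1220 correlated with r = 0.44, and those of 1219 with r = 0.02 and -0.07 with the same 2 mice. WT mouse 1221 correlated with Ndr mice 1224 and 1220 (r = 0.51 and 0.48) more than with WT mice 1225 and 1223 (r = 0.09 and -0.31). These coefficients are descriptions across genes, which are not independent replicates, and depth differed between the libraries. The 6 regional profiles thus did not pair off by genotype.

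Jag1 itself (ENSMUSG00000027276) showed no common regional pattern in either genotype. In Ndr mice it stood at 139, 196 and 89.4 CPM (hilar) and 73.7, 80.5 and 154 CPM (peripheral), and in WT mice at 186, 73.1 and 99.6 CPM (hilar) and 94.5, 110.1 and 179 CPM (peripheral). Its regional differences of 0.92, 1.28 and -0.79 in Ndr and 0.98, -0.59 and -0.84 in WT mice overlapped, with 1219 apart from the other Ndr mice and 1221 apart from the other WT mice (log2 interaction 0.65, SE 0.71, edgeR unadjusted p = 0.389). Since Ndr is a missense allele, the RNA level does not check the genotype labels.

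Of the listed ligands and receptors, Jag1 included, 7 of 11 genes passed the filter on low counts. In 1 of the 7, Jag2, the Ndr differences lay below the WT ones without overlap (3.74% of all genes). Jag2, a second Jagged ligand, was at 32.8, 20 and 21.6 CPM (hilar) and 61.4, 77.8 and 78.7 CPM (peripheral) in Ndr mice and at 24.2, 50.9 and 31.7 CPM (hilar) and 40.6, 60.3 and 34.7 CPM (peripheral) in WT mice. It was lower in the hilar culture of all 6 mice, by more in each Ndr mouse (-0.90, -1.95 and -1.86) than in any WT mouse (-0.74, -0.24 and -0.13; log2 interaction -1.20, SE 0.41, edgeR unadjusted p = 0.0197). The receptor Notch2, which acts in bile duct formation, was at 76.9, 139 and 29.7 CPM (hilar) and 80.8, 28.2 and 132 CPM (peripheral) in Ndr mice and 126, 58 and 45.9 CPM (hilar) and 101, 55.6 and 110.4 CPM (peripheral) in WT mice. Its Ndr differences of -0.07, 2.29 and -2.15 ran in both directions and enclosed the WT ones of 0.32, 0.06 and -1.26. Dll1, a Delta ligand, had differences of -0.39, 3.24 and 0.49 in Ndr and 0.04, -0.46 and -1.44 in WT mice, which overlapped.

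Of the genes that process ligand and receptor or relay the signal, 20 of 21 passed the filter, and none was at an unadjusted p under 0.05 in edgeR. Lfng, a glycosyltransferase that tunes Notch for its ligands, had differences of -0.76, -0.58 and 0.02 in Ndr and 0.58, -0.09 and 0.11 in WT mice. Of the Notch targets 15 of 19 passed the filter, with 2 at an unadjusted p under 0.05 in each direction (1.56% of all genes higher and 1.19% lower) and 1 gene above and 2 below without overlap (4.05% and 3.74% of all genes). Nrarp, a target that feeds back on the pathway, was at 2.68, 0.914 and 1.64 CPM (hilar) and 7.87, 6.04 and 3.93 CPM (peripheral) in Ndr mice and 4.94, 5.28 and 4.94 CPM (hilar) and 6.3, 6.78 and 3.83 CPM (peripheral) in WT mice, so all values were low. Its differences were -1.48, -2.48 and -1.16 in Ndr and -0.34, -0.35 and 0.35 in WT mice (log2 interaction -1.68, SE 0.60). Ccnd1, which encodes cyclin D1, lay at 594, 441 and 396 CPM (hilar) and 1200, 1091 and 1305 CPM (peripheral) in Ndr and at 582, 1113 and 788 CPM (hilar) and 930, 1204 and 588 CPM (peripheral) in WT mice, and its Ndr differences (-1.01, -1.31 and -1.72) were below the WT ones (-0.68, -0.11 and 0.42; log2 interaction -1.23, SE 0.45). Id2, an inhibitor of helix-loop-helix factors, chosen after its values were seen, went the other way, at 0.15, 0.23 and 1.01 in Ndr and -0.28, -1.04 and -0.67 in WT mice. Hes1, the textbook target of the pathway, also chosen after its values were seen, differed by -0.25, 0.26 and 0.23 in Ndr and 0.17, -0.70 and 0.17 in WT mice, and these overlapped. The targets thus did not share a direction.

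The 24 genes with the smallest interaction p among those with a gene name and at least 5 CPM in 1 group are described next: 14 had a higher and 10 a lower regional difference in Ndr mice. They were ranked by this same test, so that all 24 separate the genotypes follows from how they were chosen. Their largest unadjusted p was 0.00619, and 11 of them had opposite signs in every mouse of the 2 genotypes.

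C4b (ENSMUSG00000073418), complement component C4 and the gene with the smallest p, was at 63.3, 8.1 and 18.3 CPM (hilar) and 4.76, 0.283 and 0.207 CPM (peripheral) in Ndr mice. In WT mice it was at 65.5, 0.126 and 18.7 CPM (hilar) and 81.9, 1.17 and 32.3 CPM (peripheral). It was higher in the hilar culture of every Ndr mouse (3.68, 4.09 and 5.49) and lower in that of every WT mouse (-0.32, -2.06 and -0.78), with log2 interaction 5.51, SE 0.79 and an edgeR unadjusted p of 0.000159. Levels also differed widely between mice, and in 1225 the hilar value was near 0. C4b has a near-identical copy nearby in the genome, so its counts are uncertain where reads were shared. Cfi, a protease that degrades C4b and C3b protein, shared the direction, at 125, 274 and 315 CPM (hilar) and 22.2, 19 and 44.3 CPM (peripheral) in Ndr mice and 171, 11.7 and 43.6 CPM (hilar) and 70, 17.8 and 76.9 CPM (peripheral) in WT mice. All 3 Ndr differences of Cfi (2.48, 3.84 and 2.82) were above the WT ones (1.29, -0.60 and -0.82).

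Chpt1 (ENSMUSG00000060002), which makes phosphatidylcholine, was at 53.9, 111 and 66.5 CPM (hilar) and 26.8, 18.2 and 20.1 CPM (peripheral) in Ndr mice and at 29.3, 22.2 and 33.8 CPM (hilar) and 56.8, 36.4 and 109 CPM (peripheral) in WT mice. The Ndr hilar cultures were above the Ndr peripheral ones without overlap, and each WT hilar culture was below the peripheral one of its mouse (1.0, 2.59 and 1.71 against -0.95, -0.70 and -1.68; log2 interaction 2.89, SE 0.51, edgeR unadjusted p = 0.000591). Dram1, a lysosomal protein of autophagy, lies near Chpt1 on the same chromosome with 2 protein-coding genes between them in RefSeq. It had the same signs, with differences of 1.42, 2.83 and 0.98 in Ndr and -0.05, -1.42 and -0.88 in WT mice.

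Fgfr3 (ENSMUSG00000054252), a fibroblast growth factor receptor, was measured at 221, 67.8 and 55.5 CPM (hilar) and 92.7, 16.5 and 13.3 CPM (peripheral) in Ndr mice and 17.4, 7.16 and 24.1 CPM (hilar) and 23, 7.53 and 45.7 CPM (peripheral) in WT mice. Its Ndr differences were 1.25, 2.02 and 2.04 and its WT differences -0.40, -0.07 and -0.92, with log2 interaction 2.25, SE 0.40 and an edgeR unadjusted p of 0.000606. The 3 Ndr hilar cultures and the peripheral culture of 1224 had the 4 highest values. Ackr3 (ENSMUSG00000044337), a scavenging receptor for the chemokine Cxcl12, was at 19.4, 20.4 and 5.22 CPM (hilar) and 7.14, 1.04 and 0.103 CPM (peripheral) in Ndr mice and 2.87, 3.02 and 1.24 CPM (hilar) and 10.9, 13.5 and 3.83 CPM (peripheral) in WT mice. Its WT differences lay close together at -1.86, -2.09 and -1.49, and its Ndr differences were 1.42, 4.05 and 4.14 (log2 interaction 5.28, SE 0.99).

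Several genes of this direction were nearly silent in Ndr peripheral cultures. Alpl, tissue-nonspecific alkaline phosphatase, was at 18.6, 169 and 6.77 CPM (hilar) and 2.01, 0.754 and 0 CPM (peripheral) in Ndr mice and at 3.48, 0.502 and 3.86 CPM (hilar) and 3.19, 1.38 and 5.62 CPM (peripheral) in WT mice. Its differences were 3.09, 7.47 and 5.09 in Ndr and 0.12, -1.16 and -0.52 in WT mice, where the log2 scale carries a prior count of 2 that pulls low values together. Tmeff2, a transmembrane protein with follistatin-like domains, stood at 31, 128 and 13 CPM (hilar) and 0.64, 0.189 and 0.103 CPM (peripheral) in Ndr mice and 64.3, 0.126 and 1.85 CPM (hilar) and 11.4, 0.636 and 23.6 CPM (peripheral) in WT mice. WT mouse 1221 shared the Ndr direction for it, with differences of 5.21, 8.35 and 5.42 in Ndr and 2.47, -1.35 and -3.53 in WT mice. Rian, a maternally expressed long noncoding RNA of an imprinted locus, was at 22.1, 31.6 and 3.29 CPM (hilar) and 0.0915, 0.377 and 1.34 CPM (peripheral) in Ndr mice and 2.13, 0.879 and 3.71 CPM (hilar) and 3.11, 1.91 and 9.09 CPM (peripheral) in WT mice, so it was high in 2 Ndr hilar cultures and low in the third.

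St8sia4, a polysialyltransferase, was at 257, 1032 and 217 CPM (hilar) and 22.2, 86.8 and 11.1 CPM (peripheral) in Ndr mice and 320.3, 15.4 and 32.3 CPM (hilar) and 110.2, 21.9 and 130 CPM (peripheral) in WT mice. Its Ndr differences of 3.52, 3.57 and 4.27 were close to one another, and its WT differences of 1.54, -0.50 and -2.0 were not. Ambp, the precursor of bikunin and a marker of the biliary list, had differences of 0.60, 2.65 and 2.96 in Ndr and -0.44, -3.04 and -1.25 in WT mice. Chrm3, a muscarinic receptor, differed by 2.69, 4.58 and 3.09 and 1.21, 0.71 and -0.03, and Syne4, which ties the nucleus to kinesin, by 4.10, 3.43 and 1.83 and 0.91, 0.12 and 0.19. Slco4a1, an organic anion transporter, had the smallest interaction of the 14 genes, with 0.69, 0.01 and 1.03 in Ndr and -0.89, -1.12 and -1.23 in WT mice. Most of these differences are large in Ndr and small or negative in WT mice.

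**Figure D2:**
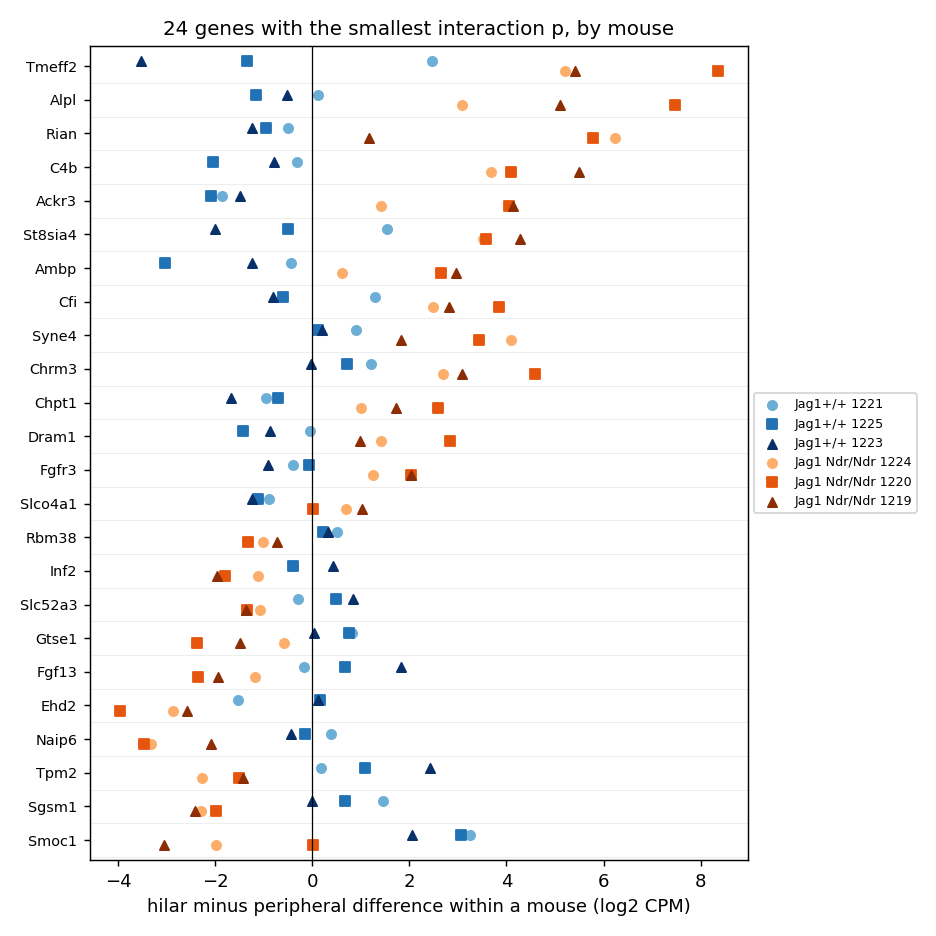
Hilar minus peripheral log2 CPM difference in each of the 6 mice (points) for the 24 genes with the smallest interaction p, ordered by log2 interaction. Orange and brown points are Jag1 Ndr/Ndr mice and blue points Jag1+/+ mice; the 2 sets do not overlap in any row, which follows from how the genes were ranked.

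In the other direction, Smoc1 (ENSMUSG00000021136), a secreted matricellular protein that antagonises bone morphogenetic proteins, was at 1.79, 1.04 and 2.22 CPM (hilar) and 7.68, 1.04 and 19.9 CPM (peripheral) in Ndr mice. In WT mice Smoc1 was at 18.5, 32.5 and 11.6 CPM (hilar) and 1.76, 3.71 and 2.63 CPM (peripheral). Every WT hilar culture was above every WT peripheral one, whereas Ndr mouse 1220 showed no difference and 1224 and 1219 the reverse (-1.99, 0.01 and -3.05 against 3.25, 3.06 and 2.06; log2 interaction -4.82, SE 0.86, edgeR unadjusted p = 0.000656). Sgsm1 (ENSMUSG00000042216), which regulates Rab GTPases, was at 2.81, 4.31 and 3.96 CPM (hilar) and 14.6, 17.7 and 22.2 CPM (peripheral) in Ndr mice and 8.9, 21.4 and 8.96 CPM (hilar) and 3.11, 13.2 and 8.97 CPM (peripheral) in WT mice. The Ndr differences of -2.30, -1.99 and -2.43 were nearly equal, and WT mouse 1223 showed almost none (1.46, 0.68 and -0.002; log2 interaction -3.03, SE 0.51, edgeR unadjusted p = 0.000433).

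Of the other 8 genes, Tpm2, a tropomyosin of actin filaments, was at 3.06, 3.66 and 13.9 CPM (hilar) and 15.7, 10.8 and 37.9 CPM (peripheral) in Ndr mice and 11.2, 32.7 and 42 CPM (hilar) and 9.91, 15.4 and 7.66 CPM (peripheral) in WT mice, lower in the hilum of all 3 Ndr mice and higher in that of all 3 WT mice. Ehd2, an ATPase of caveolae, was at 18.3, 3 and 16.9 CPM (hilar) and 134, 49.9 and 102 CPM (peripheral) in Ndr mice and 18.8, 77.5 and 33.7 CPM (hilar) and 54.6, 69.1 and 31.2 CPM (peripheral) in WT mice. WT mouse 1221 shared the Ndr direction for Ehd2, by less than any Ndr mouse. Inf2, an actin-nucleating formin, had differences of -1.12, -1.80 and -1.96 in Ndr and -0.39, -0.41 and 0.42 in WT mice. Gtse1, a microtubule-binding protein of dividing cells, differed by -0.59, -2.38 and -1.48 in Ndr and 0.81, 0.76 and 0.04 in WT mice.

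The remaining 4 genes were Fgf13, an intracellular member of the fibroblast growth factor family, Slc52a3, a riboflavin transporter, Naip6, a sensor of bacterial protein, and Rbm38, an RNA-binding protein. Fgf13 differed by -1.19, -2.36 and -1.95 in Ndr and -0.16, 0.68 and 1.83 in WT mice. For Slc52a3 the differences were -1.07, -1.34 and -1.36 and -0.29, 0.48 and 0.85. Rbm38 differed by -1.01, -1.33 and -0.72 in Ndr and 0.52, 0.22 and 0.32 in WT mice. Naip6 was at 1.02, 1.44 and 1.64 CPM (hilar) and 12, 17.9 and 7.64 CPM (peripheral) in Ndr mice and 0.061, 2.76 and 2.94 CPM (hilar) and 0, 3.07 and 4.07 CPM (peripheral) in WT mice, highest in the Ndr peripheral cultures. It belongs to a family of near-identical copies and is uncertain for that reason.

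**Figure D3:**
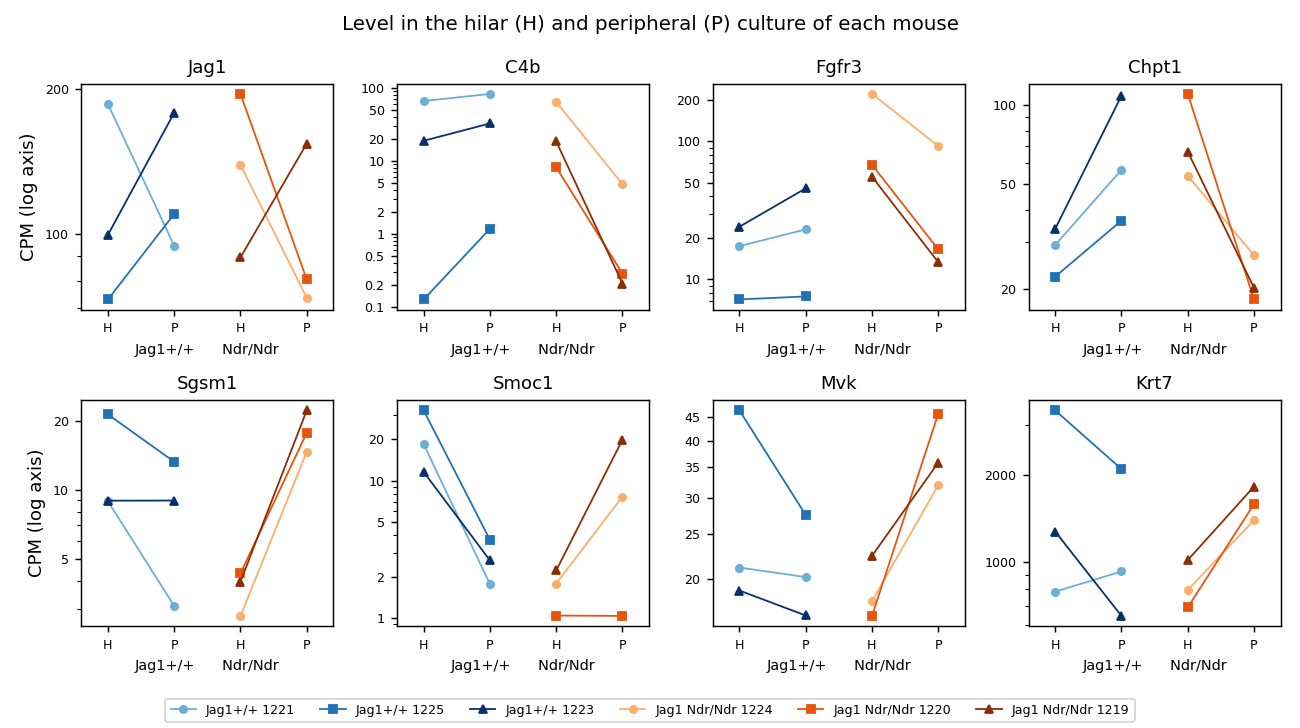
CPM (log axis) in the hilar (H) and peripheral (P) culture of each mouse for 8 genes, with 1 line for each of the 6 mice. Lines of C4b, Fgfr3 and Chpt1 go down from H to P in the 3 Ndr mice and up in the 3 WT mice, those of Mvk the other way, and those of Jag1 go both ways in each genotype.

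DESeq2 called 15 of these 24 genes, all but Slco4a1, Chrm3, Fgf13, Slc52a3, Gtse1, Naip6, Syne4, Rbm38 and Inf2, and 8 others. The 8 were Alb, Trf, Aebp1, Abca1, Pcp4l1, Cyp21a1, Cyp4a12a and Cyp4a12b, each higher. Alb, the plasma protein albumin, was at 14.7, 40.9 and 13.2 CPM (hilar) and 7.59, 0.377 and 0.31 CPM (peripheral) in Ndr mice and 15.9, 0.502 and 0.618 CPM (hilar) and 10.8, 1.7 and 3.59 CPM (peripheral) in WT mice, and differed by 0.93, 6.14 and 4.70 in Ndr and 0.55, -1.43 and -2.21 in WT mice. Abca1, the cholesterol exporter, was at 36.4, 90.7 and 12 CPM (hilar) and 0.732, 0.283 and 13.9 CPM (peripheral) in Ndr mice and 23.3, 0.251 and 2.63 CPM (hilar) and 10.3, 0.848 and 13 CPM (peripheral) in WT mice, with Ndr mouse 1219 inside the WT range. Cyp4a12a, a fatty acid hydroxylase, was at 12.3, 146 and 12 CPM (hilar) and 0, 0.377 and 0 CPM (peripheral) in Ndr mice and 67.1, 0 and 0.154 CPM (hilar) and 6.81, 0.424 and 7.3 CPM (peripheral) in WT mice. Reads of Cyp4a12a and its near-identical neighbour Cyp4a12b may be shared. Cyp21a1, a steroid hydroxylase with no protein-coding gene between it and C4b in RefSeq, differed by 4.47, 3.75 and 1.14 in Ndr and 0.70, -2.44 and -2.29 in WT mice. All but Trf were below 1 CPM in at least 1 library, and edgeR gave each an adjusted p of 0.9999 or more.

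The genes of cholesterol synthesis were lower in the hilar than the peripheral culture of Ndr mice, and in WT mice they differed little or either way. Cells make cholesterol from acetyl-CoA through mevalonate and squalene, and the factor encoded by Srebf2 switches the enzymes on together when sterols are short. All 3 Ndr mice had lower hilar values in 26 of the 29 listed genes (89.7%), against 12.8% of all genes. All 3 WT mice had them in 0, against 9.3% of all genes. The median difference over the list was -0.70, -1.19 and -0.79 in the Ndr mice and -0.23, 0.51 and -0.24 in the WT mice, so only WT mouse 1225 was above 0. The interaction was below 0 in 28 of 29 genes, against 52.1% of all genes, and its median was -0.95, against -0.03. In 17 of the 29 genes the 3 Ndr differences lay below the 3 WT ones, against 3.74% of all genes, and 9 of 29 had a lower interaction at an unadjusted p under 0.05 in edgeR, against 1.19%. None of the 29 passed the adjusted threshold by edgeR or DESeq2. The list was chosen with earlier results of these data known, and its members are not independent of one another.

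Sequences upstream of the early enzymes are shown because the list's genes had similar differences. They run from 250 bases before to 50 after the transcript start (RefSeq, GRCm38.p6), 5′ to 3′ on the gene's strand, with capitals at each CCAAT or its reverse complement ATTGG, and at TCACCCCAC, a sterol regulatory element form.
Hmgcs1 (chr13:119690101-119690400, + strand): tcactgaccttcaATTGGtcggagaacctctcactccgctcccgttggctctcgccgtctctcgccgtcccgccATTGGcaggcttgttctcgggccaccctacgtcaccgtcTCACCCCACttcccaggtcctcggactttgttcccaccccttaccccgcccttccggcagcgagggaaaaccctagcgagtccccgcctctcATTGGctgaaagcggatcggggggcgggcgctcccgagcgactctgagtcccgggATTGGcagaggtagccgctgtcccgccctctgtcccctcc
Mvk (chr5:114444019-114444318, + strand): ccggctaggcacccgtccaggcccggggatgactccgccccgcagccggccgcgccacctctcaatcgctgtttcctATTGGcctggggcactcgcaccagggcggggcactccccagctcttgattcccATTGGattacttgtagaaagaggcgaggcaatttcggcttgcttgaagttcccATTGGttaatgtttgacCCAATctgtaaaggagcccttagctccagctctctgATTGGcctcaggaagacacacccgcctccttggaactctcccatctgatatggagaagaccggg
Mvd (chr8:122443373-122443672, - strand): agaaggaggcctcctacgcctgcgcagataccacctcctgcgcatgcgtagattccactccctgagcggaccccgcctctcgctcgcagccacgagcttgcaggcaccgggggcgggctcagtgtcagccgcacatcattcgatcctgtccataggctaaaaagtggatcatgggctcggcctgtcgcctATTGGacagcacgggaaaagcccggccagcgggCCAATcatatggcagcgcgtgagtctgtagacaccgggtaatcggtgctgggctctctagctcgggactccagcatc
Both motifs were searched on both strands, and they do not overlap in these windows. The Hmgcs1 window holds 4 CCAAT matches and 1 of TCACCCCAC, the Mvk window 5 and 0, and the Mvd window 2 and 0. CCAAT was in 20 of 25 windows of the 20 listed genes that had one, and in 37.4% of all 32851 windows. TCACCCCAC was in 1 of the 25 windows and in 0.551% of all. A match is a run of letters and not a bound site.

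Hmgcs1, which makes HMG-CoA, was at 191, 192 and 206 CPM (hilar) and 422, 462 and 457 CPM (peripheral) in Ndr mice and 204, 649 and 248 CPM (hilar) and 290.1, 455 and 285 CPM (peripheral) in WT mice. All 3 Ndr mice had about the same levels and the same differences (-1.14, -1.26 and -1.15), and the WT mice differed by -0.51, 0.51 and -0.20 (log2 interaction -1.12, SE 0.39, edgeR unadjusted p = 0.0215). Hmgcs1 was chosen after its values were seen.

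Mvk (ENSMUSG00000041939), mevalonate kinase, had the smallest p of the list and opposite signs in the genotypes. It was at 17.9, 16.6 and 22.4 CPM (hilar) and 32, 45.8 and 35.9 CPM (peripheral) in Ndr mice and 21.2, 46.6 and 18.9 CPM (hilar) and 20.2, 27.6 and 16.6 CPM (peripheral) in WT mice, with differences of -0.83, -1.46 and -0.67 and 0.07, 0.75 and 0.18 (log2 interaction -1.33, SE 0.38, edgeR unadjusted p = 0.00915). Mvd, which makes isopentenyl diphosphate, was at 32.6, 34.5 and 50.3 CPM (hilar) and 67.8, 111 and 78.4 CPM (peripheral) in Ndr mice and 33.8, 120.2 and 49 CPM (hilar) and 43.3, 66.8 and 39 CPM (peripheral) in WT mice (log2 interaction -1.40, SE 0.45, edgeR unadjusted p = 0.0153). WT mouse 1225 had the highest hilar level of all 6 mice in Mvk, Mvd and Hmgcs1 alike. Without it, 16 listed genes lay below without overlap in place of 17. Over all genes that count rose, from 562 of 15014 to 793 of 15318, as it does with fewer mice. The list's median interaction without 1225 was -0.60 in place of -0.95.

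Later steps were alike, though not in every gene. Fdps, which makes farnesyl diphosphate, differed by -0.85, -1.82 and -1.35 in Ndr and -0.54, 0.21 and -0.55 in WT mice, and Nsdhl, a late sterol dehydrogenase, by -0.94, -1.73 and -0.79 and -0.45, 0.72 and -0.26. Insig1, which holds the sterol sensor back, differed by -0.95, -1.19 and -0.52 and -0.43, 0.30 and 0.33. Srebf2 overlapped between genotypes, at -0.48, -0.08 and -1.14 and -0.14, 0.21 and -0.40. These 4 genes were chosen after their values were seen. Of the list's fatty acid genes, Acly, which makes cytosolic acetyl-CoA, differed by 0.25, 0.88 and -1.18 in Ndr and 0.34, 0.46 and -0.41 in WT mice, and Scd2, a fatty acid desaturase, by -0.46, -0.12 and -1.86 and -0.59, 0.23 and -1.03. Both overlapped.

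**Figure D4:**
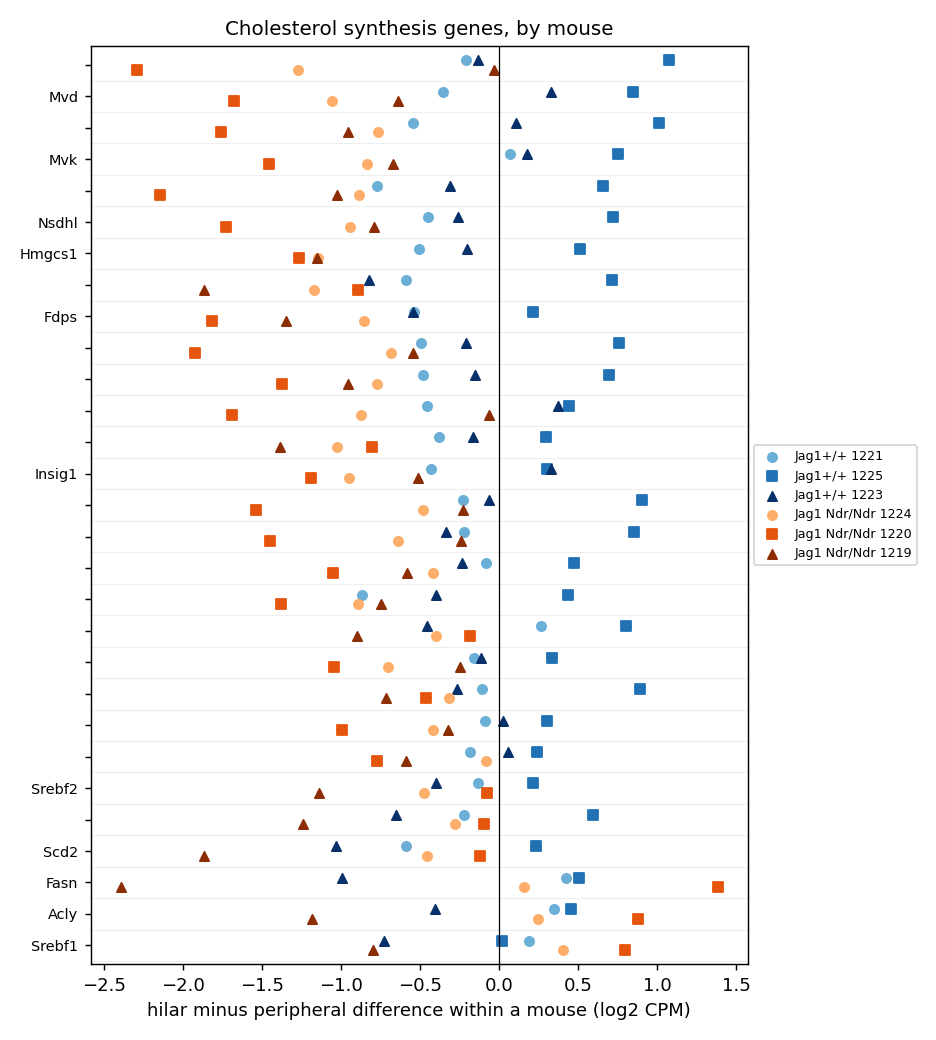
Hilar minus peripheral log2 CPM difference in each of the 6 mice for the 29 cholesterol synthesis genes, ordered by log2 interaction, with names on the rows of genes given in the text. Jag1 Ndr/Ndr mice (orange and brown) lie to the left of Jag1+/+ mice (blue) without overlap in 17 rows, and they mix in the others, such as Acly, Fasn, Srebf1 and Scd2.

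Of the keratins among the biliary identity genes, Krt7, Krt8 and Krt18 had Ndr differences below the WT ones and Krt19 and Krt23 overlapped, and none passed the adjusted threshold. Krt7, an intermediate filament protein of duct cells, was at 797, 693 and 1013 CPM (hilar) and 1397, 1588 and 1827 CPM (peripheral) in Ndr mice and 787, 3366 and 1273 CPM (hilar) and 925, 2103 and 647 CPM (peripheral) in WT mice. Its Ndr differences of -0.81, -1.20 and -0.85 lay below its WT ones of -0.23, 0.68 and 0.98 (log2 interaction -1.43, SE 0.47, edgeR unadjusted p = 0.0168). Krt8, the partner of Krt18 in simple epithelia, differed by -1.44, -0.96 and -1.01 in Ndr and -0.63, 0.78 and 0.77 in WT mice, and Krt18 by -0.90, -0.78 and -0.49 and -0.46, 0.72 and 0.87. Krt19, the usual marker of bile ducts, had larger differences that overlapped, at -2.55, -3.05 and -0.84 in Ndr and -1.53, 0.08 and 1.13 in WT mice. Krt23 differed by -0.06, -3.72 and -1.31 and -2.26, 0.09 and 3.21. Krt7, Krt8, Krt19 and Krt23 were chosen after their values were seen.

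The biliary identity list as a whole, keratins included, was divided. Of 30 tested, 16 had an interaction above and 14 below 0, and 2 lay above and 4 below without overlap (4.05% and 3.74% of all genes). The 4 below were Krt7, Krt8, Krt18 and Itga6. Itga6, the alpha-6 laminin receptor chain, was at 87.2, 35.1 and 61.3 CPM (hilar) and 313, 160.3 and 181 CPM (peripheral) in Ndr mice and 92.2, 295 and 174 CPM (hilar) and 189.7, 283 and 145 CPM (peripheral) in WT mice (log2 interaction -1.63, SE 0.44, edgeR unadjusted p = 0.00726), lower in the hilum of all 3 Ndr mice. Spp1, osteopontin, was at 6495, 8389 and 7200 CPM (hilar) and 8280, 1608 and 1795 CPM (peripheral) in Ndr mice and 6896, 1242 and 3972 CPM (hilar) and 6104, 2724 and 7590 CPM (peripheral) in WT mice. Ndr mice 1220 and 1219 were several-fold higher in the hilum, and 1224 was inside the WT range (-0.35, 2.38 and 2.0 against 0.18, -1.13 and -0.93).

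Genes of cell division had a lower interaction throughout, but their WT values lay far apart. All 32 mitosis genes and all 30 genes of DNA replication had an interaction below 0, against 52.1% of all genes, with medians of -1.68 and -1.02. All 3 Ndr mice were lower in the hilum in 30 of the 32 mitosis genes (93.8%), against 12.8% of all genes. All 3 WT mice were lower there in 0, against 9.3% of all genes. Of the lists, 4 of the 32 and 2 of the 30 lay below without overlap between genotypes (3.74% of all genes). A lower interaction at an unadjusted p under 0.05 in edgeR was found in 3 and 1 of them (1.19% of all genes). The median over the mitosis genes was -1.69, -3.19 and -0.68 in the Ndr mice and -0.57, 1.42 and -1.33 in the WT mice. The hilar culture of WT mouse 1225 was thus the sole one above its peripheral partner, and without that mouse the medians were -0.91 for mitosis and -0.43 for DNA replication. The median for DNA replication was also -0.66 without Ndr mouse 1220 and -1.58 without Ndr mouse 1219.

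Plk1, a mitotic kinase, was at 5.49, 4.7 and 7.16 CPM (hilar) and 22.2, 45.1 and 26.6 CPM (peripheral) in Ndr mice and 14, 86.7 and 9.11 CPM (hilar) and 23.1, 32 and 22 CPM (peripheral) in WT mice (log2 interaction -2.18, SE 0.78, edgeR unadjusted p = 0.0255). Mki67, the usual marker of cycling cells, differed by -2.09, -2.05 and -2.43 in Ndr and -0.78, 1.78 and -2.87 in WT mice, so WT mouse 1223 had the largest drop of all. Fen1, a flap endonuclease of DNA replication, was between 0.914 and 7.54 CPM and differed by -1.55, -1.90 and -1.12 in Ndr and 0.09, 1.80 and 0.04 in WT mice. Cdkn1a, a cyclin-dependent kinase inhibitor, differed by -0.50, -1.18 and -0.98 in Ndr and 0.70, -0.84 and 0.64 in WT mice. Between the 2 mice derived on 21 June, Cdkn1a had the other sign, 0.34. The highest levels of Plk1 and Mki67, as of Mvk and Mvd, were in the hilar culture of WT mouse 1225, and whether division bears on the cholesterol genes was not tested.

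Genes of the primary cilium, the sensory antenna of cholangiocytes, leaned the other way. Of 37 tested, 34 had an interaction above 0, against 47.9% of all genes, with a median of 0.53, and 2 lay above without overlap (4.05% of all genes). All 3 Ndr mice were higher in the hilum in 12 of 37 genes (32.4%), against 12.8% of all genes. The median regional difference over the list was 0.42, 1.30 and -0.04 in the Ndr mice and 0.42, -0.19 and -0.42 in the WT mice. These overlapped, with Ndr mouse 1219 below WT mouse 1221. Dync2li1, a subunit of the ciliary dynein, was at 65.2, 89.6 and 95.8 CPM (hilar) and 33.2, 24.1 and 44.6 CPM (peripheral) in Ndr mice and 61.7, 20.1 and 50 CPM (hilar) and 32.9, 40.4 and 49.8 CPM (peripheral) in WT mice, and its WT mouse 1221 came close to the Ndr mice (0.97, 1.89 and 1.10 against 0.91, -1.0 and 0.01; log2 interaction 1.34, SE 0.55). Ttc8, a subunit of the BBSome, differed by 0.82, 1.45 and 0.81 and 0.84, -0.67 and -0.62. The median interaction of the list was 0.21 without Ndr mouse 1220, 0.34 without WT mouse 1223 and 0.90 without Ndr mouse 1219.

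All 13 transcripts of the mitochondrial genome had an interaction above 0, against 47.9% of all genes, with a median of 0.96, and none separated the genotypes. That median was 0.28 without Ndr mouse 1224, 0.49 without Ndr mouse 1220 and 1.88 without Ndr mouse 1219. The list median was 0.81, 0.33 and -2.36 in the Ndr mice and -1.33, -0.61 and -1.84 in the WT mice, so Ndr mouse 1219 was the lowest of the 6. mt-Co1, a subunit of cytochrome oxidase, was at 7031, 2501 and 2636 CPM (hilar) and 4011, 1951 and 17840 CPM (peripheral) in Ndr mice and 2692, 1894 and 2101 CPM (hilar) and 9037, 2967 and 5998 CPM (peripheral) in WT mice. Nuclear genes of the respiratory chain had an interaction below 0 in 29 of 30, against 52.1% of all genes, with a median of -0.37, which was 0.03 without Ndr mouse 1220 and -0.74 without Ndr mouse 1219.

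Plasma and acute-phase proteins were mixed. The hepatocyte list had 14 of 33 genes past the filter, with 3 above and 0 below without overlap (4.05% and 3.74% of all genes). Trf, transferrin, was at 2636, 1781 and 4278 CPM (hilar) and 1044, 648 and 462 CPM (peripheral) in Ndr mice and 4318, 373 and 3463 CPM (hilar) and 5533, 2111 and 3967 CPM (peripheral) in WT mice (log2 interaction 2.97, SE 0.85, edgeR unadjusted p = 0.00904). It was higher in the hilum of all 3 Ndr mice and lower in that of all 3 WT mice, by most in 1225. Fgg, the gamma chain of fibrinogen, was at 1.02, 2.35 and 2.61 CPM (hilar) and 0.0915, 0.0943 and 0 CPM (peripheral) in Ndr mice and 1.04, 0 and 2.01 CPM (hilar) and 1.51, 0 and 1.79 CPM (peripheral) in WT mice, which is a few reads per library. Hnf4a, a hepatocyte transcription factor, differed by 0.06, -0.13 and -1.29 in Ndr and -0.07, -0.18 and -0.45 in WT mice. The list's summed level was 2169 to 4542 CPM in Ndr hilar, 824 to 1586 CPM in Ndr peripheral, 557 to 4837 CPM in WT hilar and 2444 to 6113 CPM in WT peripheral cultures, and its part in these results was not tested.

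Of the inflammation list 33 genes were tested, 16 above and 17 below 0, with 4 above and 1 below without overlap (4.05% and 3.74% of all genes, also the background of the lists that follow). Beside C4b, Socs3, a brake on cytokine signalling, differed by -0.15, 1.20 and 1.42 in Ndr and -0.32, -0.68 and -0.94 in WT mice. Cp, the copper carrier ceruloplasmin, was at 2343, 3307 and 2822 CPM (hilar) and 1784, 766 and 1202 CPM (peripheral) in Ndr mice and 5340, 384 and 3506 CPM (hilar) and 5217, 1941 and 4304 CPM (peripheral) in WT mice (log2 interaction 2.08, SE 0.80). Lcn2, the iron-siderophore binding lipocalin, ranged over -0.89, 1.91 and 4.42 and -0.43, -3.17 and 0.94 and overlapped. The interferon list had 29 tested genes, 1 above and 1 below without overlap. Xbp1, a transcription factor of the unfolded protein response, differed by 0.36, 0.91 and 1.85 in Ndr and -0.31, -0.52 and -0.14 in WT mice (log2 interaction 1.36, SE 0.47), and its list had 2 of 29 genes above without overlap.

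Among signalling lists, the counts without overlap are to be read against 4.05% of all genes above and 3.74% below. The list of epidermal and insulin-like growth factor signalling had 1 of 24 above, the already described Fgfr3, and YAP targets 1 of 27 below. That YAP target was F3, tissue factor, at 45.7, 18.2 and 46 CPM (hilar) and 152, 57.3 and 88.5 CPM (peripheral) in Ndr mice and 30.2, 94.8 and 103 CPM (hilar) and 28.1, 114 and 30.9 CPM (peripheral) in WT mice (log2 interaction -1.95, SE 0.57, edgeR unadjusted p = 0.0105). Wnt genes had 1 of 25 above and 1 below, the latter Lgr6, an R-spondin receptor, which stayed under 10 CPM. Of the transforming growth factor list, 3 of 27 were above and 1, Smoc1, below. Inhbb, a subunit of activin B, was at 92.6, 111 and 66.9 CPM (hilar) and 53.9, 4.62 and 8.78 CPM (peripheral) in Ndr mice and 85.2, 18.8 and 39.4 CPM (hilar) and 56.6, 44.4 and 63.3 CPM (peripheral) in WT mice (log2 interaction 3.19, SE 1.01). Dusp5, a phosphatase that acts on ERK, differed by -1.13, -1.13 and -0.50 in Ndr and -0.33, -0.13 and 0.73 in WT mice, and 3 of 27 immediate early and ERK genes were below without overlap.

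For lists of epithelial structure and transport the same background applies, 4.05% of all genes above and 3.74% below. Basement membrane and integrin genes had 2 of 31 above and 2 below, junction genes 0 of 32 above and 1 below, and secretion and transport genes 1 of 19 above and 1 below. Atp1b1, a sodium pump subunit, was at 675, 688 and 473 CPM (hilar) and 438, 375 and 249.5 CPM (peripheral) in Ndr mice and 519.9, 187 and 361 CPM (hilar) and 502, 188 and 510.4 CPM (peripheral) in WT mice (log2 interaction 0.96, SE 0.35). Abcb1a, a drug exporter, differed by -1.51, -1.68 and -0.24 in Ndr and 0.07, 0.57 and 1.40 in WT mice. Tff2, a trefoil peptide of large ducts, differed by 2.89, 1.14 and 4.47 in Ndr and -1.10, 0.67 and 0.99 in WT mice at levels under 10 CPM. Srxn1, which repairs peroxiredoxins, differed by -0.19, -0.77 and -1.60 and -0.04, 0.48 and 0.41, and 1 of 33 genes of its list lay above and 2 below. Glycolysis had none of 32 on either side, and brush border genes none of 7. G1 genes had 0 of 21 above and 3 below, and ribosome biogenesis 0 of 25 above and 1 below. Of the fibroblast list 5 of 17 genes passed the filter, all with an interaction above 0, against 47.9% of all genes. A gene of low level can pass the filter through the 1 group where it is high, so this shared sign may follow from the filter. Postn, periostin, was at 2.81, 19.9 and 16.6 CPM (hilar) and 0, 0.0943 and 1.03 CPM (peripheral) in Ndr mice and 5.37, 0 and 0.463 CPM (hilar) and 0.168, 0.106 and 1.79 CPM (peripheral) in WT mice. The part of such cells in the other results was not tested.

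**Figure D5:**
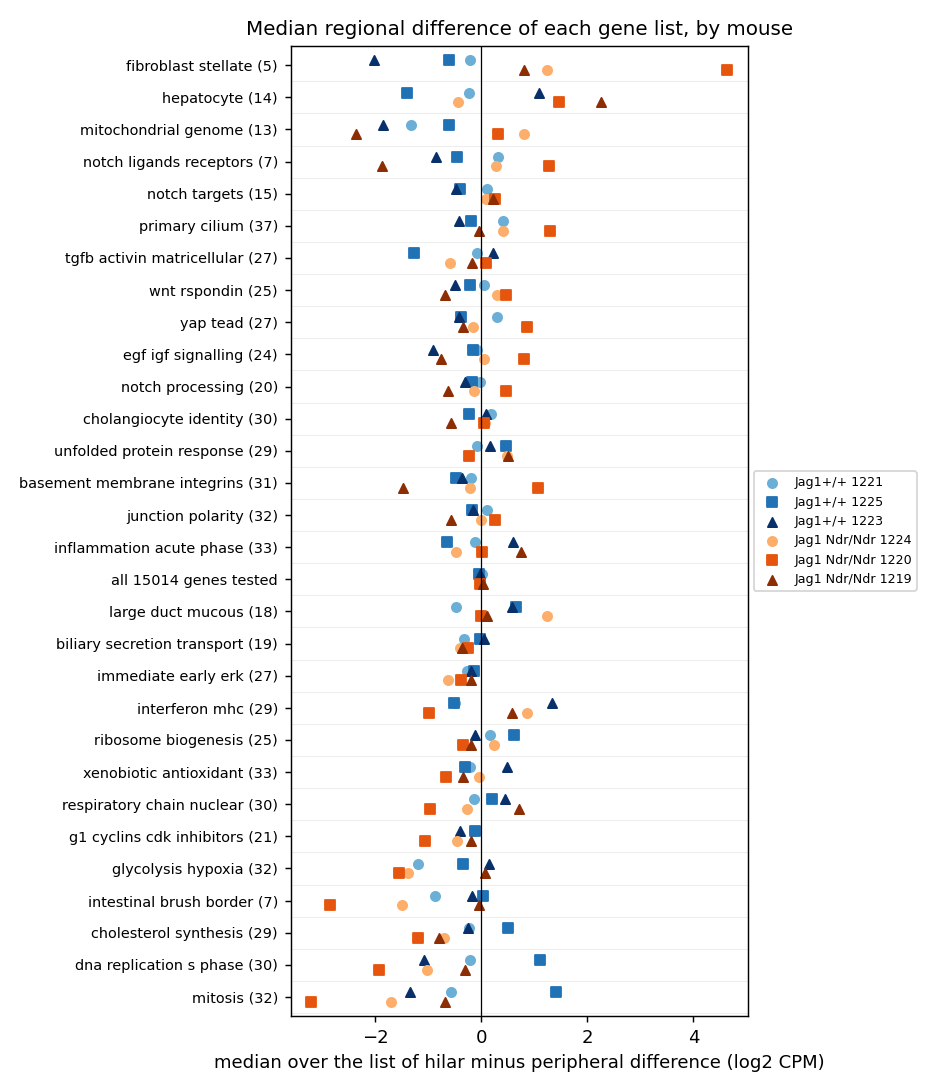
Median over each gene list of the hilar minus peripheral log2 CPM difference, for each of the 6 mice, with the number of genes tested in brackets. The cholesterol synthesis and fibroblast lists are the only rows in which Jag1 Ndr/Ndr (orange and brown) and Jag1+/+ (blue) medians do not overlap. The fibroblast row rests on 5 genes of low level, which can pass the filter through the group where they are high. In the mitosis row mouse 1225 stands apart at 1.42.

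Derivation date can be held constant for 1 pair of mice, Ndr 1224 and WT 1225, both derived on day 21. Between these the interaction of Jag1 was 1.51, and C4b (5.73), Chpt1 (1.71), Fgfr3 (1.32), Smoc1 (-5.05) and Sgsm1 (-2.98) had the sign of the value over all mice, which is fixed for these 5 and the other 19 of the 24 genes, since their genotypes did not overlap. The median was -1.32 for cholesterol synthesis, -3.09 for mitosis and 0.43 for cilium genes, against -0.95, -1.68 and 0.53 over all mice. WT mouse 1225 had the highest WT list medians for cholesterol synthesis (0.51) and mitosis (1.42), and both were below 0 in the other WT mice. The values of this pair for those lists thus rest on a mouse that stood apart. With 1 mouse of each genotype these values have no replicates, and for the other mice date and genotype cannot be told apart.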

How the data were processed

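RNA from the 12 organoid cultures was prepared with TruSeq RNA kits and sequenced on an Illumina NextSeq, per the labels' protocols. The authors deposited raw read counts per gene and a table of normalized values per gene (unit: signal). featureCounts, GRCm39 and DESeq2 1.34.0 are named, with no role, in the submitters' processing notes. Of the normalized values, 78.5% lay more than 1% off a single factor per library, by a step that no label records, so they served as an alternative alone. The aligner, strand setting and handling of shared reads are not given here.

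Counts were fitted with edgeR 4.0.16 in R 4.3.3 (filterByExpr, TMM, robust quasi-likelihood test). The design had a coefficient for each of 6 mice and for region within each genotype, with 4 residual degrees of freedom and Benjamini-Hochberg adjustment over 15014 genes. The replicate block follows from the labels: equal numbers mark 1 animal. Deviations from group means of the paired libraries correlated at 0.14, -0.34 and -0.31 (1224, 1220, 1219) and 0.33, 0.45 and -0.06 (1221, 1225, 1223). Expression is CPM on TMM-scaled totals, and log2 CPM had a prior count of 2. P-values measure the spread of the regional differences between these mice, which also holds the spread between cultures. The fitting code was run on simulated counts with known interactions and a set spread. That checks the code and not how well the fits suit these data.

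Named were Jag1, the 24 smallest p at 5 CPM or more, and up to 2 genes by p and 2 by CPM of each of 33 lists (843 of 846 genes matched an identifier). Symbols came from GENCODE M21, and 28 tested genes had none. Members and lists were chosen with earlier results of these data known. Alternatives were the fit without block, DESeq2 1.42.0, limma 3.58.1, other scalings and filters, each mouse left out, and mice of 1 date.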

Additional observations from a re-analysis of the deposited data

How the results depend on the processing

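Genes called stayed at 0 without the replicate block (4 group coefficients; 451 genes at an unadjusted p under 0.05, against 413 with the paired design), with limma-voom, with limma on the differences, and under each other scaling and filter. DESeq2 called 23, with 727 at an unadjusted p under 0.05. limma on the deposited normalized table called 2, Fgg and Gfra1. Leaving out 1 mouse gave 0 to 1 calls (Cyp4a12a, without WT 1221). It gave 142 genes at an unadjusted p under 0.05 without WT 1225, 257 without Ndr 1220 and 1581 without Ndr 1219, and a range of 1640 (without 1225) to 4929 (without 1219) genes without overlap, a count that rises by construction with fewer mice. Without further scaling the split at an unadjusted p under 0.05 was 264 higher and 152 lower, and without the block 163 and 288, against 234 and 179. The 91 genes tried were Jag1, those named by p outside the endothelial, immune, mesothelial and pancreatic lists, and the others called by DESeq2. Krt7, Krt8, Krt18, Krt19, Hmgcs1, Spp1 and Id2 were added to them. Other genes described, among them Hes1, Srebf2, Krt23, Onecut1 and Notch2, were not tried. None of the 91 changed sign in the 16 refits. Where the genotypes did not overlap, as in the 24 genes with the smallest p, leaving out a mouse cannot turn the sign, so this follows in part from how the genes were chosen. Cdkn1a changed sign between the 2 mice of 21 June (0.34). The count of cholesterol genes without overlap, an alternative chosen after seeing the data, was 14 (library totals) to 21 (without Ndr 1219). Fewer mice raise this count too by construction. Over all genes, 2712 of 15136 lay below without Ndr 1219, against 562 of 15014 with all mice. The medians of the biliary identity, basement membrane, inflammation, junction, large duct mucous and unfolded protein response lists changed sign in 4 to 6 refits. The cause of these changes was not tested. The spread between 3 mice limits what could be called: the median SE was 0.54.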

Other observations

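A few genes with low or patchy levels had large regional differences in single mice. Igf2, an insulin-like growth factor, was at 1.53, 26.9 and 9.57 CPM (hilar) and 0, 0 and 0 CPM (peripheral) in Ndr mice and 19.6, 0.126 and 0.154 CPM (hilar) and 0.924, 0 and 0.718 CPM (peripheral) in WT mice. It was at 0 in all 3 Ndr peripheral cultures and detected in all 3 Ndr hilar ones, and WT mouse 1221 shared that direction, so its differences of 3.09, 7.05 and 5.58 and 4.14, 0.69 and -1.36 overlapped. Tnfrsf19, a receptor of the tumour necrosis factor family, was at 29.5, 47 and 27.6 CPM (hilar) and 1.1, 1.6 and 8.06 CPM (peripheral) in Ndr mice and 28.1, 8.04 and 13.8 CPM (hilar) and 3.28, 5.62 and 37.4 CPM (peripheral) in WT mice, and 1221 again lay with the Ndr mice. Onecut1, a transcription factor of bile duct development, chosen after its values were seen, was at 22.2, 31.6 and 4.84 CPM (hilar) and 0.823, 0.66 and 12.3 CPM (peripheral) in Ndr mice and 5.73, 0.377 and 7.11 CPM (hilar) and 2.44, 2.33 and 19.4 CPM (peripheral) in WT mice. It was high in the hilar cultures of Ndr mice 1224 and 1220 and in the peripheral ones of Ndr mouse 1219 and WT mouse 1223.

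Etv4, a transcription factor downstream of ERK, went the other way, at 10.5, 1.96 and 11.3 CPM (hilar) and 43.6, 25.8 and 22.3 CPM (peripheral) in Ndr mice and 11.2, 36.9 and 30.9 CPM (hilar) and 25.5, 38.9 and 22.9 CPM (peripheral) in WT mice. Its differences were -2.04, -3.59 and -0.97 in Ndr and -1.18, -0.07 and 0.43 in WT mice, with 1221 inside the Ndr range. Cldn3, a tight junction protein, differed by -0.73, -2.09 and -0.19 in Ndr and 0.37, -0.22 and 1.0 in WT mice, which overlapped. In Igf2, Tnfrsf19 and Etv4 alike, WT mouse 1221 was the one that came closest to the Ndr mice.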
